A study of Mesocricetus auratus with 36 samples.

Results

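Refractory golden hamsters (Mesocricetus auratus) had given up hibernation by themselves while the days were still short and the room still cold. They were compared with hamsters in the middle of their hibernation season that were warm between torpor bouts. The comparison takes the 6 libraries titled refractory and the 6 titled interbout euthermia, 12 of the 36 libraries of the series, chosen by title alone. In refractory 4 and interbout 6 over 5% of the counts fell on ribosomal RNA genes, so the main values set the 5 remaining libraries of each group against each other, and the values with all 12 libraries follow.

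Each library holds RNA from 1 male, from the ependymal strip of the hypothalamus cut out by laser capture. The interbout animals were 6 months old, on 10 h of light and 8 °C for 8 to 12 weeks, and were taken 23 h into the euthermic interval after 3 torpor-arousal cycles. The refractory animals were 8 months old, on the same 10 h of light and 8 °C for about 20 weeks, carry the label reproductive, and had been out of torpor for 2 weeks or more when sampled. Both groups were thus warm, in the same light and in the same room temperature, while age, weeks on short days, time since torpor and reproductive state differ together and cannot be told apart. The other 4 groups, used here only to place the levels, are a long photoperiod group (14 h of light and 22 °C, labelled 8 months old), a pre-hibernation group (4 months old, 4 weeks on short days), a late pre-hibernation group (6 months old, 8 to 12 weeks on short days, before any torpor) and a torpid group (6 months old, taken in mid bout after 3 cycles). The pre-hibernation, late pre-hibernation and torpid groups were on 10 h of light and 8 °C. Long photoperiod thus differs from all the other groups in light and room temperature together. Nothing in the labels pairs animals between groups.

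Tanycytes are elongated glial cells of the ventricular floor of the hypothalamus, and the strip also holds ciliated ependymal cells and some adjoining tissue. In seasonal mammals tanycytes receive the day-length signal through thyrotropin from the pars tuberalis and set local thyroid hormone through the deiodinases Dio2, which makes the active hormone, and Dio3, which destroys it. They also handle glucose, fatty acids, lactate and retinoids at the border between blood, cerebrospinal fluid and neurons.

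The 10 libraries of the main comparison held 17.14 to 28.54 M counts (M, 1e6). Ribosomal RNA genes took 0.226% to 0.669% of them and 13 mitochondrial genes 2.14% to 2.80%. In refractory 4 these shares were 41.8% and 13.8% of 5.16 M counts, and in interbout 6 they were 7.21% and 12.0% of 14.11 M counts. Levels are normalised counts per 1e6 counts (CPM), given as mean ± SD over n = 5 libraries of a group unless each library is listed. The labelled tissue carried the tanycyte markers Vim (1123 ± 132 CPM in refractory, 1489 ± 212 in interbout), Rax (125 ± 46.1 and 98.8 ± 39.3) and Col23a1 (92.1 ± 5.68 and 88.2 ± 13.5). It also carried markers of ciliated ependymal cells, such as Ccdc153 at 1068 ± 319 and 797 ± 191 CPM, and of astrocytes, such as Aqp4 at 786 ± 155 and 739 ± 206 CPM. Transcripts of the neighbouring pituitary stood out most in 2 of the 5 refractory libraries. Gh1, growth hormone, was at 88.5 CPM in refractory 2 and 547 CPM in refractory 3, against 0.198, 0.269 and 3.73 CPM in refractory 1, 5 and 6 and at most 1.57 CPM in the interbout libraries. Refractory 4 read 21.9 CPM for Gh1, and the long photoperiod libraries, used below to place the levels, read 14.0 to 295 CPM. Cga, another pituitary marker, read 18.7, 150 and 5.49 CPM in refractory 2, 3 and 6. It read 0.595 and 0.807 CPM in refractory 1 and 5 and at most 1.53 CPM in the interbout libraries. Refractory 6 thus also lay above the interbout libraries for Gh1 and Cga, at far lower levels than refractory 2 and 3. The calls that were lost without refractory 2 and 3 are given after the counts of genes below. That fit still holds refractory 6.

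Of 17903 genes tested, 540 (3.02%) differed between refractory and interbout animals at an adjusted p below 0.05. Of these, 208 (1.16%) were higher in the refractory group and 332 (1.85%) were lower. A change of more than 2-fold was found for 49 of the higher and 77 of the lower genes, the median log2 change being 0.68 among the higher and -0.62 among the lower genes, beside 0 over all genes tested. The 5 refractory and 5 interbout libraries did not overlap for 871 genes (4.87% of those tested), among them 356 of the 540; refractory lay above for 329 (1.84%) and below for 542 (3.03%). With all 12 libraries, 628 genes passed (3.5% of 17926), 365 higher (2.04%) and 263 lower (1.47%), so the balance turned from 38.5% higher to 58.1% higher. The genes called both ways in the same direction numbered 235, of which 61 were higher and 174 lower. Keeping refractory 4 but not interbout 6 gave 950 genes, 617 of them higher.

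The counts also leaned on single animals. Leaving out refractory 2 left 151 genes, interbout 3 left 168, interbout 4 left 210, refractory 1 left 218, refractory 5 left 261 and interbout 1 left 295. Leaving out refractory 3, by contrast, gave 617 genes. A total of 117 genes passed in each of the 10 fits that left out 1 library, 29 higher and 88 lower, and 96 of these (17 higher, 79 lower) also passed with all 12 libraries. Without refractory 2 and 3, the libraries with over 50 CPM of Gh1, 111 genes passed (45 higher, 66 lower), 107 of them among the 540. Of the 69 genes named by rule that passed, 33 lost the call without refractory 2, 33 without interbout 4, 32 without interbout 3, 28 without refractory 1, 27 without refractory 5, 26 without interbout 1 and 42 without refractory 2 and 3 together; none changed direction. The 27 that passed without refractory 2 and 3 included the higher genes Crabp1, Penk, Crtac1, Fjx1, Cers1, Gmcl1, Hsph1 and Srsf1. They also included the lower genes Sh3bgrl3, Dct, Dio2, Pygm, Slc25a20, Hspb6, Ddit4, Angptl4, Acot4, Psmb8, Psmb9, Sigirr, Dysf, Tgfb1i1, Cpxm1, Pde10a and Sesn3. Every other gene below that was named by rule and called lost its call in that fit, with adjusted p from 0.0529 for Sdhaf3 to 0.69 for Gh1. Of the genes that held in all 10 fits, Cpt1b (adjusted p = 0.0711), Cryab (0.0663), Rdh10 (0.0775), Nr1d2 (0.0609), Mmp23b (0.0564), Gadl1 (0.0792) and Cartpt (0.0612) lost it. Below, "held in all 10 fits" refers to the fits that left out 1 library each. Counts of list members that passed stand beside 1.16% (higher) and 1.85% (lower) of all genes tested. Counts of members by direction stand beside 8951 genes higher and 8952 lower in value. A single member that passed describes that gene and not its list.

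**Figure D1:**
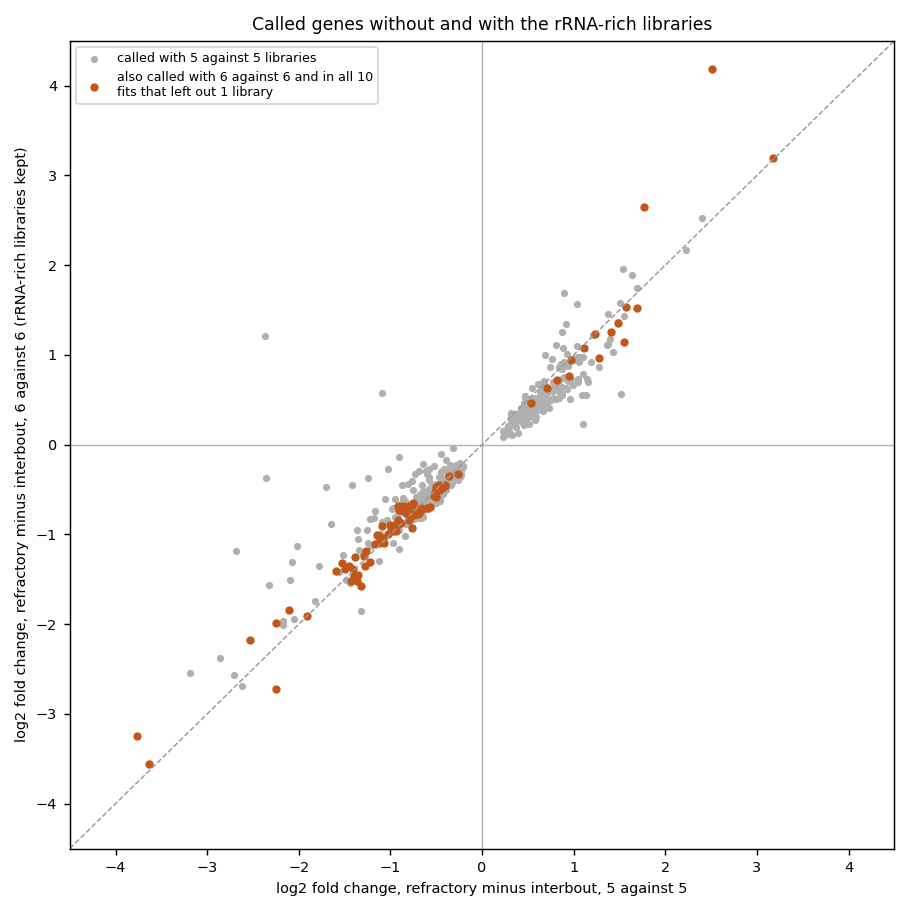
Log2 fold change of the called genes, refractory minus interbout, with 5 against 5 libraries on the x axis and with 6 against 6 on the y axis; 535 of the 540 genes lie within the axes of -4.5 to 4.5 and the dashed line marks equal values. Orange points are genes called both ways and in all 10 fits that left out 1 library; of 96 such genes 79 are on the lower side and 1 lies beyond the axes.

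Dio2, the enzyme that activates thyroid hormone, was lower in the refractory animals. Dio2 read 3.05, 3.22, 7.79, 4.53 and 5.25 CPM in refractory 1, 2, 3, 5 and 6, against 14.9, 25.7, 25.7, 5.38 and 31.6 CPM in interbout 1 to 5. All interbout libraries but interbout 4 lay well above every refractory library, and interbout 4 lay inside the refractory range. The log2 fold change was -2.11 ± 0.43 (SE), 4.32-fold lower in refractory (adjusted p = 0.00722, edgeR), and it held in all 10 fits. With all 12 libraries it was -1.84 (adjusted p = 0.0167), and interbout 6 itself read 4.23 CPM. Dio3 did not follow: it stood at 6.2 ± 3.02 CPM in refractory and 5.81 ± 4.57 CPM in interbout animals, a log2 difference of 0.09 ± 0.71 (adjusted p = 0.963). Of the 17 thyroid hormone genes tested, Dio2 was the only one that passed, and the median of the list was 0.06. The thyrotropin receptor Tshr (-0.37 ± 0.21, adjusted p = 0.34) and the cytosolic hormone-binding protein Crym (0.45 ± 0.34, adjusted p = 0.479) did not pass. With all 12 libraries the receptor Thrb (adjusted p = 0.0214) was also lower.

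Retinoid genes differed in both directions. Crabp1, which binds retinoic acid in the cytosol, had one of the smallest p values of the comparison. It read 20.7, 20.9, 35, 23.1 and 20.1 CPM in the refractory libraries and 9.88, 12.1, 9.52, 6.73 and 7.06 CPM in the interbout libraries, with no overlap. The rise was 2.64-fold (log2 1.40 ± 0.19, adjusted p = 0.000122); it held in all 10 fits and with all 12 libraries (1.26, adjusted p = 0.00518), although refractory 4 read 7.54 CPM. Rdh10, which oxidises retinol in the first step toward retinoic acid, was higher as well, at 27.1 ± 7.95 against 13.8 ± 4.18 CPM (log2 0.97 ± 0.22, adjusted p = 0.0138), and only refractory 1, at 15.2 CPM, lay within the interbout range. Lrat, which esterifies retinol for storage, was lower. It read 7.02, 4.39, 4.30, 3.88 and 6.30 CPM in refractory and 12.7, 19.8, 14.1, 8.04 and 37.5 CPM in interbout libraries, which did not overlap. The log2 change of Lrat was -1.83 ± 0.42 (adjusted p = 0.0178), and its call was lost without interbout 5 (adjusted p = 0.0536) or refractory 2 (adjusted p = 0.058), and without refractory 2 and 3 together (adjusted p = 0.105). With all 12 libraries Lrat passed (-1.75, adjusted p = 0.0169). The other 12 retinoid genes tested did not pass, and the list median was 0.20.

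Genes of glycogen breakdown were among those lower in the refractory group. Pygm, the muscle-type glycogen phosphorylase, read 14.8, 20.4, 34.8, 29.5 and 39.2 CPM in refractory and 133, 83.8, 121, 131 and 54.1 CPM in interbout libraries. Every refractory library lay under every interbout library. The change was 3.76-fold (log2 -1.91 ± 0.35, adjusted p = 0.00435); it held in all 10 fits and was also -1.91 with all 12 libraries (adjusted p = 0.00177). Phkg2 and Phka2, subunits of the kinase that switches phosphorylase on, were lower by less, with log2 changes of -0.35 ± 0.09 (adjusted p = 0.0258) and -0.56 ± 0.15 (adjusted p = 0.0412). The call of Phkg2 was lost in 5 of the 10 fits and that of Phka2 in 6, with adjusted p values up to 0.0886 and 0.119. With all 12 libraries Phkg2 passed (adjusted p = 0.0171) and Phka2 did not (adjusted p = 0.116). Of 21 glycogen genes tested these 3 passed, beside 1.85% of all genes tested that were called lower. Of the 21, 15 had a lower value in refractory, beside 8952 of 17903 genes, and the list median was -0.11. The brain-type and liver-type phosphorylases Pygb (-0.27 ± 0.11, adjusted p = 0.143) and Pygl (-0.32 ± 0.13, adjusted p = 0.166) did not pass.

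Slc25a20 and Cpt1b encode 2 proteins of the carnitine shuttle, which carries fatty acids into mitochondria for oxidation. Their transcripts were also lower, while Cpt1a did not pass. Slc25a20, the carnitine-acylcarnitine carrier of the inner membrane, read 42.8, 44.4, 49.9, 43.1 and 52.0 CPM in refractory against 67.5, 65.2, 69.2, 65.9 and 65.9 CPM in interbout libraries. The 2 groups were far apart relative to their spread, and the log2 change of -0.52 ± 0.09 (adjusted p = 0.00217) held in all 10 fits and with all 12 libraries (-0.57, adjusted p = 0.0242). Cpt1b, the muscle-type carnitine palmitoyltransferase of the outer membrane, read 3.05, 5.85, 7.47, 4.27 and 11.6 CPM in refractory and 20.0, 14.0, 20.2, 21.6 and 11.3 CPM in interbout libraries. Only refractory 6 and interbout 5 overlapped. Its log2 change was -1.43 ± 0.32 (adjusted p = 0.0138), held in all 10 fits, and was -1.52 with all 12 libraries (adjusted p = 0.00924). Eci1, which prepares unsaturated fatty acids for oxidation, was lower by -0.32 ± 0.07 (adjusted p = 0.0157; 0.058 without refractory 2, 0.0695 without refractory 2 and 3 and 0.0888 with all 12), and the brain isoform Cpt1c by -0.55 ± 0.16 (adjusted p = 0.0464; lost in 7 of 10 fits, up to 0.147 without refractory 1). With all 12 libraries Cpt1c passed (-0.66, adjusted p = 0.0167). Slc25a20, Cpt1b, Eci1 and Cpt1c were the members that passed in the main comparison among 27 tested. Of the 27, 21 were lower in value and the median was -0.13. Cpt1a, the widely expressed isoform, stood at 54.8 ± 12.0 and 64.7 ± 6.01 CPM (adjusted p = 0.378), and Pdk4, which holds back pyruvate oxidation, at 5.03 ± 1.68 and 5.41 ± 0.826 CPM (adjusted p = 0.814).

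Among other fuel genes, Acot4, a peroxisomal thioesterase that frees acids from coenzyme A, was 3.02-fold lower. It read 0.516, 0.468, 0.940, 0.999 and 1.44 CPM in refractory and 2.35, 2.07, 3.16, 3.26 and 2.62 CPM in interbout libraries, with no overlap (log2 -1.59 ± 0.26, adjusted p = 0.0014; -1.41 with all 12, adjusted p = 0.0167). Of 26 genes for sterol and fatty acid synthesis, 23 were lower in value, with a median of -0.16. Angptl4, a fasting-induced inhibitor of lipoprotein lipase, was 2.12-fold lower (5.75 ± 1.33 against 12.2 ± 3.19 CPM, log2 -1.08 ± 0.24, adjusted p = 0.0123; 0.0249 with all 12). Of 32 genes of glucose and lactate transport and glycolysis, Gapdh (-0.32 ± 0.08, adjusted p = 0.032) and Pgk1 (-0.23 ± 0.06, adjusted p = 0.0322) were slightly lower. Both passed in only 4 of the 10 fits and in neither case with all 12 libraries (adjusted p = 0.0881 and 0.138). The glucose transporter Slc2a1 (421 ± 37.7 and 405 ± 46.4 CPM, adjusted p = 0.794) and the lactate transporter Slc16a1 (109 ± 13.2 and 106 ± 10.1 CPM, adjusted p = 0.886) did not pass. Of genes picked after their values were seen, Khk, which phosphorylates fructose, was at 26.1 ± 4.19 against 37.4 ± 1.08 CPM (adjusted p = 0.00681). Ldhd, the D-lactate dehydrogenase, was at 43.6 ± 2.93 against 61.8 ± 4.35 CPM (adjusted p = 0.00291).

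Transcripts of 2 small heat shock proteins were lower in refractory animals. Cryab, the alpha-B crystallin, read 304, 424, 316, 280 and 593 CPM in refractory and 1120, 665, 1020, 1020 and 820 CPM in interbout libraries, with no overlap. The fall was 2.42-fold (log2 -1.28 ± 0.27, adjusted p = 0.00885) and -1.35 with all 12 libraries (adjusted p = 0.00177). Hspb6, another small heat shock protein, read 31.4, 47, 50.4, 39.1 and 66.1 CPM against 113, 95.8, 109, 142 and 85.5 CPM, again apart. Its log2 change was -1.22 ± 0.21 (adjusted p = 0.00235) and -1.31 with all 12 (adjusted p = 0.000664), and both genes held in all 10 fits. Hsph1, a large chaperone of the Hsp110 family, went the other way, at 201 ± 45 against 107 ± 9.90 CPM (log2 0.92 ± 0.19, adjusted p = 0.00761), but did not pass with all 12 libraries (adjusted p = 0.0781). These 3 were the ones that passed of 29 heat shock and chaperone genes, whose median was -0.01. None of 25 genes of the unfolded protein and amino acid response passed, with Hspa5 at 780 ± 127 and 813 ± 87.2 CPM (adjusted p = 0.863).

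A few stress-response genes were lower. Ddit4, an inhibitor of mTOR signalling, read 103, 104, 95.9, 99.7 and 82.8 CPM in refractory and 180, 163, 158, 176 and 167 CPM in interbout libraries. The 2 groups were separated by a wide gap (log2 -0.80 ± 0.13, adjusted p = 0.0014), and the change was -0.84 with all 12 (adjusted p = 0.00366). Tsc22d3, the glucocorticoid-induced leucine zipper, was at 215 ± 50.6 against 324 ± 49.7 CPM (log2 -0.60 ± 0.17, adjusted p = 0.0499); it passed in 3 of 10 fits and not with all 12 (adjusted p = 0.109). With Angptl4, these made 3 of 23 genes in the glucocorticoid and stress list, which had a median of -0.05. Sesn3, which restrains mTOR and responds to FOXO factors, was at 168 ± 17.2 against 220 ± 3.83 CPM (log2 -0.39 ± 0.10, adjusted p = 0.0272); 6 of the 10 fits lost the call, with adjusted p up to 0.0743 without refractory 1. With all 12 libraries Sesn3 passed (-0.51, adjusted p = 0.0205). Ddit4 and Sesn3 were the members that passed of 41 insulin, FOXO and mTOR genes.

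The immunoproteasome subunits Psmb8 and Psmb9, which cut proteins for display on MHC class I, were lower. Psmb8 read 12.9, 13.9, 21, 12.4 and 21.7 CPM in refractory and 37.3, 59.7, 40.2, 40 and 22.9 CPM in interbout libraries. The groups were apart, but interbout 5 lay close to the top of the refractory range. The change was 2.44-fold (log2 -1.29 ± 0.24, adjusted p = 0.00435). Psmb9 read 19.4, 19.9, 27.3, 17.6 and 22.4 CPM against 32.7, 70.5, 40.2, 32.6 and 29 CPM (log2 -0.94 ± 0.21, adjusted p = 0.0109), and the log2 change was -0.66 without interbout 2, the highest library. Both held in all 10 fits and with all 12 libraries (adjusted p = 0.00177 and 0.0105). Psme1, an interferon-responsive proteasome activator picked after its values were seen, was at 170 ± 13.7 against 241 ± 14.5 CPM (log2 -0.51 ± 0.09, adjusted p = 0.00217). Psmb8 and Psmb9 were the members that passed of 26 interferon and antigen presentation genes, 24 of which were lower in value, with a median of -0.33 beside 0 over all genes. The peptide transporter Tap2 (-0.75 ± 0.23, adjusted p = 0.0622) passed only with all 12 libraries (adjusted p = 0.0294), and B2m, the light chain of MHC class I, stood at 266 ± 41.9 and 265 ± 29.6 CPM (adjusted p = 0.985). C1r, the protease that starts the classical complement pathway, was lower at 4.81 ± 1.97 against 12.0 ± 2.94 CPM (log2 -1.31 ± 0.32, adjusted p = 0.0258); it was the only one that passed of 28 complement and cytokine genes, and lost the call without refractory 1 (adjusted p = 0.0802), refractory 2 (0.0828), interbout 3 (0.0702) or interbout 5 (0.0507), and without refractory 2 and 3 together (0.126). C1r passed with all 12 libraries (-1.19, adjusted p = 0.0223). Sigirr, a brake on interleukin-1 receptor signalling, was 2.01-fold lower (5.31 ± 1.15 against 10.7 ± 1.33 CPM, adjusted p = 0.0014). Microglia and macrophage markers, 18 tested, had no member that passed, and their summed level ranged from 405 to 756 CPM in refractory and 391 to 932 CPM in interbout libraries (scaled with all 36 libraries), with interbout 2 the highest. Their part in these results was not tested.

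The genes with the most clear-cut separation belonged to no one pathway. Sh3bgrl3, a small thioredoxin-like protein, had the smallest adjusted p of the genes with an informative name, together with Crabp1. It read 165, 141, 189, 156 and 177 CPM in refractory and 281, 258, 287, 285 and 270 CPM in interbout libraries, so the highest refractory value stayed far under the lowest interbout value (log2 -0.74 ± 0.10, adjusted p = 0.000122; -0.76 with all 12, adjusted p = 0.000265). Dysf, dysferlin, which mends damaged plasma membranes, was 2.65-fold lower (7.57 ± 2.27 against 20.0 ± 3.26 CPM, log2 -1.40 ± 0.23, adjusted p = 0.0014). Tgfb1i1, a focal adhesion adaptor, was 2.19-fold lower (9.86 ± 2.84 against 21.6 ± 4.45 CPM, adjusted p = 0.00212). All 3 held in all 10 fits and with all 12 libraries.

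The largest fall among genes at a moderate level (mean log2 CPM of at least 1) was that of Dct, dopachrome tautomerase, an enzyme of melanin synthesis. It read 2.10, 0.995, 2.69, 1.31 and 1.94 CPM in refractory and 34.2, 33, 19.0, 7.49 and 20.0 CPM in interbout libraries. The groups did not overlap and the fall was 12.5-fold (log2 -3.64 ± 0.62, adjusted p = 0.00237; -3.56 with all 12, adjusted p = 0.000742). Cpxm1, a carboxypeptidase-like secreted protein, fell 2.73-fold (2.95 ± 0.875 against 8.08 ± 1.45 CPM, adjusted p = 0.00313). Mmp23b, a membrane metalloproteinase, fell 2.82-fold (3.77 ± 1.97 against 10.7 ± 2.60 CPM, adjusted p = 0.0112). Both held in all 10 fits and with all 12 libraries.

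Several other large falls were less even across animals. Pde10a, which degrades cyclic nucleotides, read 20.4, 39.6, 10.2, 3.26 and 10.5 CPM in interbout libraries, and interbout 4 lay inside the refractory range of 2.28 to 5.77 CPM (log2 -2.02 ± 0.39, adjusted p = 0.00564). Without interbout 2 its log2 change was -1.42, and with all 12 libraries it did not pass (-1.13, adjusted p = 0.176), refractory 4 reading 29.1 CPM. Gadl1, an amino acid decarboxylase, read 1.12 to 2.14 CPM in the 5 refractory and 4.44 to 6.95 CPM in the 5 interbout libraries (log2 -1.71 ± 0.36, adjusted p = 0.00869), and held in all 10 fits but not without refractory 2 and 3 together (adjusted p = 0.0792). Refractory 4 read 21.2 CPM for Gadl1, and with all 12 libraries the log2 change was -0.47 (adjusted p = 0.667). Dhrs7c, a dehydrogenase of the short-chain family, read 10.2, 5.82, 13.8, 28.2 and 2.31 CPM in interbout libraries and 0.952 to 2.99 CPM in refractory libraries (log2 -2.62 ± 0.60, adjusted p = 0.0166). The call of Dhrs7c was lost without interbout 4 (adjusted p = 0.0709), refractory 1 (0.0533) or refractory 2 (0.0551). Ngfr, the low-affinity neurotrophin receptor, read 24.2, 24.8, 39.4, 31.6 and 4.82 CPM in interbout libraries and 3.74 to 8.86 CPM in refractory libraries. Interbout 5 lay within the refractory range, and the call of Ngfr (log2 -2.05 ± 0.51, adjusted p = 0.0281) was lost in 5 of the 10 fits, with adjusted p up to 0.0828 without refractory 2. Cited1, a transcriptional co-regulator, was at 367 ± 134 against 997 ± 489 CPM (log2 -1.44 ± 0.41, adjusted p = 0.0483) and passed in 4 of 10 fits. Dhrs7c, Ngfr and Cited1 passed with all 12 libraries (adjusted p = 0.00807, 0.0218 and 0.0167). Dnase2b, an acid nuclease, was at 2.73 ± 0.961 against 12.4 ± 7.19 CPM (adjusted p = 0.0499) and passed in 1 of 10 fits. It missed the threshold with all 12 libraries (adjusted p = 0.0595).

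Precursors of 2 hypothalamic neuropeptides were higher in the refractory libraries. Penk, the precursor of the enkephalins, read 12.6, 14.0, 20.9, 8.84 and 15.6 CPM in refractory and 6.23, 6.29, 5.87, 3.56 and 3.74 CPM in interbout libraries. The groups did not overlap, and the rise was 2.80-fold (log2 1.48 ± 0.23, adjusted p = 0.000847; 1.35 with all 12, adjusted p = 0.00487). Cartpt, the precursor of the appetite-restraining CART peptide, read 83.2, 59.3, 70.8, 52.8 and 46 CPM against 27.4, 15.8, 28.3, 10.5 and 14.8 CPM, again apart (log2 1.69 ± 0.37, adjusted p = 0.0134; 1.52 with all 12, adjusted p = 0.019). Refractory 4 read 19.5 CPM for Cartpt, inside the interbout range. Both genes held in all 10 fits; without refractory 2 and 3 Penk passed (1.26, adjusted p = 0.0214) and Cartpt did not (1.65, adjusted p = 0.0612). They were the members that passed of 16 hypothalamic neuropeptides, 13 of which were higher in value with a median of 1.14. Among those that did not pass were the reproductive peptide precursor Kiss1 (1.14 ± 0.36, adjusted p = 0.0706; 0.0458 with all 12) and Ghrh, growth hormone-releasing hormone (1.15 ± 0.34, adjusted p = 0.0541). Npy, the hunger peptide, stood at a log2 difference of 0.13 (adjusted p = 0.866).

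Neuron and pituitary markers were mostly higher in value in the same libraries. Syn1, a synaptic vesicle protein, read 23.4, 26.7, 29, 21.1 and 30.3 CPM in refractory and 14.1, 18, 6.45, 4.45 and 5.25 CPM in interbout libraries (log2 1.43 ± 0.36, adjusted p = 0.0296). Syn1 passed in 5 of the 10 fits, adjusted p reaching 0.0912 without interbout 3, and did not pass with all 12 libraries (adjusted p = 0.0946) or without refractory 2 and 3 (adjusted p = 0.104). It was the only member that passed of 18 neuron markers, 16 of which were higher in value with a median of 0.51; their summed level ranged from 792 to 1158 CPM in refractory and from 612 to 1089 CPM in interbout libraries. With all 12 libraries the only neuron marker that passed was Eno2, neuronal enolase, in the lower direction (log2 -0.53, adjusted p = 0.0271; -0.50, adjusted p = 0.0618, in the main comparison). Of 12 pituitary markers tested, all were higher in value, 3 passed (Gh1, Fshb and Pou1f1) and the median was 1.15, also with Pou1f1 set to its lower bound. Their summed level ranged from 182 to 2018 CPM in refractory and from 156 to 272 CPM in interbout libraries. The rise of Gh1 (log2 8.21 ± 2.02, adjusted p = 0.0273) came to 1.74 without refractory 2 and 3 (adjusted p = 0.69). Fshb, a gonadotropin subunit, was at 0 counts in refractory 1 and 5 and in interbout 1, 2, 3 and 5, and had 15, 169 and 9 counts in refractory 2, 3 and 6 and 3 in interbout 4. Pou1f1, the pituitary transcription factor, had 39 counts over the 5 refractory libraries and 0 over the 5 interbout libraries, at least 13.3-fold higher against a floor of 3 counts over the group, and 0 in refractory 1. Neither gene passed without refractory 2 and 3 (adjusted p = 0.636 and 0.265), and median changes of the pituitary and neuropeptide lists were then 0.64 and 0.97.

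Pomc, which both arcuate neurons and the pituitary express, read 77.7, 126, 1090, 67.8 and 1410 CPM in refractory 1, 2, 3, 5 and 6 and 70.6 to 182 CPM in the 5 interbout libraries. Refractory 3 and 6 were far above the rest and the remaining 3 lay within or under the interbout range (log2 2.47 ± 0.86, adjusted p = 0.106). Gh1 read 547 CPM in refractory 3 and 3.73 CPM in refractory 6, against at most 1.57 CPM in the interbout libraries. Whether the high Pomc came from pituitary tissue or from neurons was not tested. When the average levels of neuronal and of oligodendrocyte markers entered the fit as covariates, Penk (1.14, adjusted p = 0.00303) passed and Cartpt did not (1.05, adjusted p = 0.0532). In these bulk samples more cells of a type in the strip and more RNA per cell cannot be told apart, and the part of neighbouring tissue in the peptide levels was not tested.

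**Figure D2:**
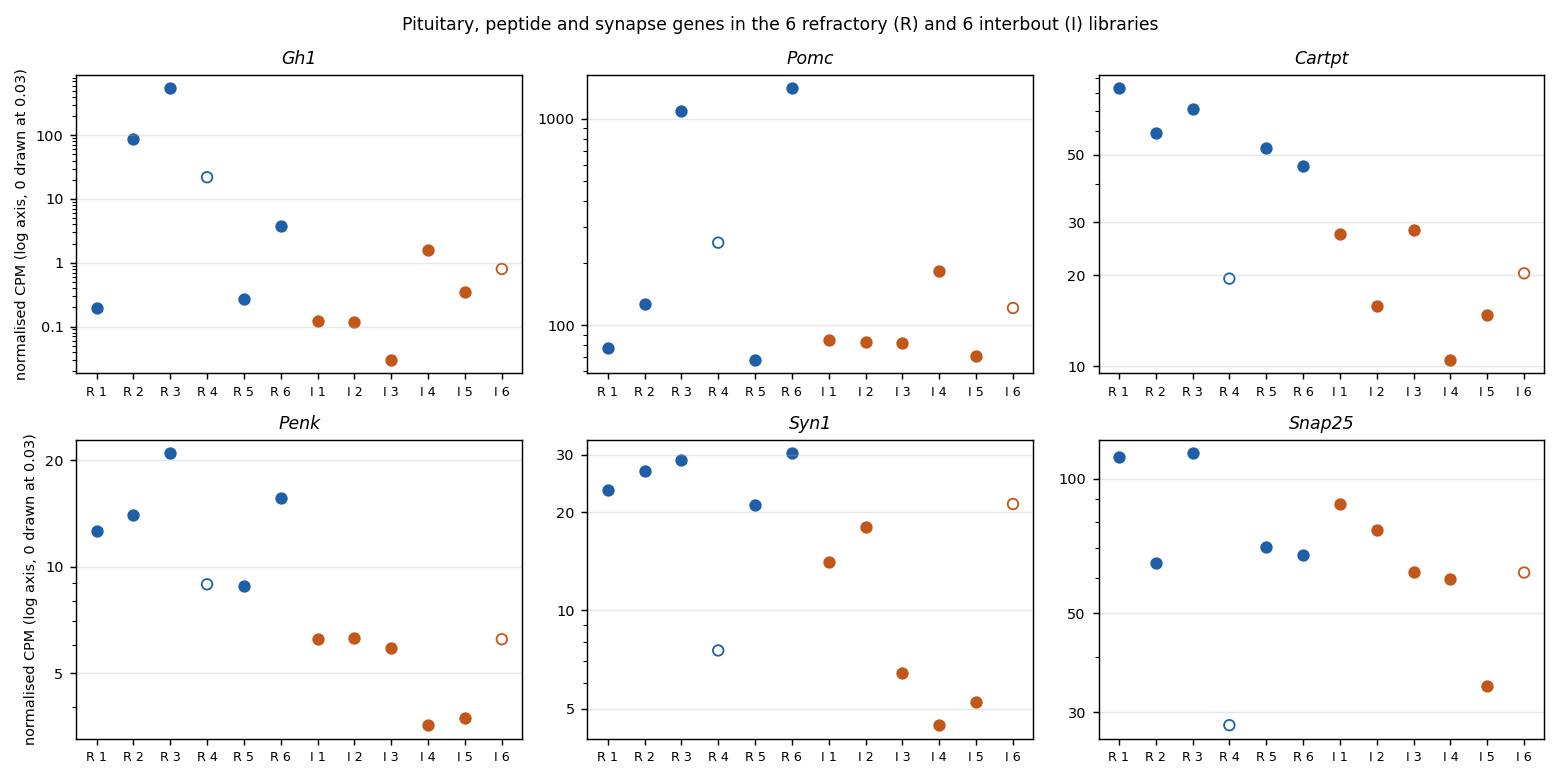
Normalised CPM of 6 genes in each of the 12 libraries on log axes, blue for refractory (R) and orange for interbout (I); open circles are the rRNA-rich refractory 4 and interbout 6, which are scaled with all 36 libraries. Gh1 is high in refractory 2 and 3 and Pomc in refractory 3 and 6, whereas Penk and Cartpt are higher in all 5 filled refractory points than in any filled interbout point.

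Other rises among genes at a moderate level were smaller than 3-fold. Crtac1, a secreted matrix protein, was 2.92-fold higher (5.67 ± 1.21 against 1.93 ± 0.806 CPM, log2 1.54 ± 0.29, adjusted p = 0.00435), and Gmcl1, a nuclear envelope protein, 2.16-fold higher (14.6 ± 2.62 against 6.72 ± 1.84 CPM, log2 1.11 ± 0.21, adjusted p = 0.00471). Fjx1, a regulator of planar cell polarity, read 68.1, 54.8, 35.5, 48.1 and 78.7 CPM in refractory and 20.7 to 25.1 CPM in interbout libraries (adjusted p = 0.0138). These 3 held in all 10 fits and with all 12 libraries (adjusted p = 0.0315, 0.008 and 0.0493). Ecel1, a neuronal peptidase, was 2.80-fold higher (21.4 ± 4.28 against 7.64 ± 3.94 CPM, adjusted p = 0.0166) and passed with all 12 libraries (adjusted p = 0.0202), but not without interbout 3 (adjusted p = 0.0509) or interbout 4 (0.0565), and not without refractory 2 and 3 together (0.0768). Cers1, a ceramide synthase of neurons, was 2.23-fold higher (55.6 ± 14.4 against 24.9 ± 6.24 CPM, adjusted p = 0.0141). Interbout 6 read 61.9 CPM for Cers1, and with all 12 libraries it did not pass (0.69, adjusted p = 0.158). The homeobox genes Msx1 (158 ± 47.9 against 60.7 ± 18.9 CPM, adjusted p = 0.0398) and Irx5 (3.35 ± 0.304 against 1.52 ± 0.312 CPM, adjusted p = 0.0467) and the ubiquitin ligase Rnf187 (306 ± 55.6 against 138 ± 69.6 CPM, adjusted p = 0.0437) passed in 2, 1 and 2 of the 10 fits. With all 12 libraries none of these 3 passed (adjusted p = 0.0511, 0.487 and 0.204).

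A few clock genes changed, in both directions. Nr1d1 and Nr1d2, the Rev-erb repressors, were higher, and Npas2, an activator in the same network, was lower. Nr1d2 read 24.6, 35.8, 42.7, 35.2 and 40.1 CPM in refractory and 15, 24.6, 19.9, 25.4 and 15 CPM in interbout libraries (log2 0.84 ± 0.17, adjusted p = 0.00583). Only refractory 1 lay within the interbout range, and the call held in all 10 fits but not with all 12 libraries (0.52, adjusted p = 0.125). Nr1d1 was at 87.7 ± 10.4 against 49.5 ± 17.4 CPM (log2 0.82 ± 0.22, adjusted p = 0.04) and passed in 1 of 10 fits and with all 12 (adjusted p = 0.0373). Npas2 was at 22.8 ± 4.10 against 33.6 ± 8.55 CPM (log2 -0.56 ± 0.15, adjusted p = 0.0354) and passed in 4 of 10 fits and with all 12 (adjusted p = 0.043). Of the 23 clock genes tested, 19 did not pass, and the list median was 0.05. No clock time of sampling was found in the labels. Crem, a cyclic AMP-responsive regulator picked after its values were seen, was at 24.0 ± 2.48 against 42.3 ± 13.5 CPM (log2 -0.81 ± 0.15, adjusted p = 0.00438).

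Splicing, receptor and cell cycle genes gave a few further rises. The splicing factor Srsf1 was at 60.6 ± 7.57 against 37 ± 4.07 CPM, without overlap (log2 0.71 ± 0.14, adjusted p = 0.00564; 0.64 with all 12, adjusted p = 0.019), and held in all 10 fits. The cold-inducible Rbm3 stood at 232 ± 28.7 and 265 ± 29.8 CPM (adjusted p = 0.231). Of 31 nutrient, taste and hormone receptors, the purine receptor P2ry1 (0.84 ± 0.22, adjusted p = 0.0346), the orphan receptor Gprc5b (0.30 ± 0.08, adjusted p = 0.0388) and the progesterone receptor Pgr (0.97 ± 0.28, adjusted p = 0.0463) were higher, with 4, 1 and 4 of the 10 fits passing. With all 12 libraries none of the 3 passed (adjusted p = 0.187, 0.597 and 0.144). Ccne2, cyclin E2, was higher at 2.42 ± 0.315 against 1.35 ± 0.338 CPM (adjusted p = 0.0267; 0.0293 with all 12) and passed in 6 of 10 fits, the only one of 29 cell division genes, whose median was -0.30. Vegfc, a lymphatic growth factor (0.81 ± 0.20, adjusted p = 0.0274; 0.0174 with all 12), was the only one of 24 tight junction and barrier genes and passed in 4 of 10 fits. Sdhaf3, an assembly factor of respiratory complex II, was the only one of 73 nuclear oxidative phosphorylation genes (0.44 ± 0.12, adjusted p = 0.0322). It passed in 4 of 10 fits and not with all 12 (adjusted p = 0.211). Over all genes tested, 1.16% were called higher.

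Few glial and structural markers passed. Of 20 tanycyte markers tested, Dio2 and Prdx6, a peroxiredoxin, were lower, 14 were lower in value and the median was -0.23. Prdx6 was at 1197 ± 61.4 against 1466 ± 82.1 CPM (log2 -0.29 ± 0.08, adjusted p = 0.0393), but passed in 3 of 10 fits and not with all 12 (adjusted p = 0.192). Vim, vimentin, was at 1123 ± 132 against 1489 ± 212 CPM (-0.41 ± 0.12, adjusted p = 0.0543). Rax, the tanycyte transcription factor (125 ± 46.1 and 98.8 ± 39.3 CPM, adjusted p = 0.599), Nes, nestin (120 ± 15.1 and 129 ± 8.97 CPM, adjusted p = 0.681), and the orphan receptor Gpr50 (1.67 ± 1.13 and 3.23 ± 2.45 CPM, adjusted p = 0.291) did not pass either. The summed level of the tanycyte markers ranged from 3361 to 4922 CPM in refractory and from 4432 to 5228 CPM in interbout libraries, so the groups overlapped. Of 44 motile cilia and ependymal markers none passed by edgeR, 41 were higher in value, and the median was 0.20; their summed level ranged from 11120 to 16670 CPM in refractory and from 11550 to 15410 CPM in interbout libraries. Without refractory 3 and 6, 5 of the ciliary genes passed, all higher. The astrocyte enzyme Aldh1l1 was lower (46.7 ± 7.37 against 69.6 ± 2.56 CPM, log2 -0.58 ± 0.16, adjusted p = 0.041), 1 of 12 astrocyte markers, and so was Sox10, an oligodendrocyte lineage factor (4.16 ± 1.58 against 9.72 ± 3.95 CPM, adjusted p = 0.0412), 1 of 11 oligodendrocyte markers whose median was 0.30. These passed in 1 and 3 of the 10 fits and neither passed with all 12 libraries (adjusted p = 0.123 and 0.211). Timp1, an inhibitor of matrix metalloproteinases, was the only one of 46 extracellular matrix genes (16.7 ± 3.94 against 26.2 ± 3.92 CPM, log2 -0.65 ± 0.17, adjusted p = 0.0343; 5 of 10 fits), and Btg2 the only one of 28 immediate early genes (44.7 ± 5.10 against 58.4 ± 3.07 CPM, adjusted p = 0.0412; 2 of 10 fits). Both passed with all 12 libraries (adjusted p = 0.0203 and 0.0252). In the main comparison 1.85% of all genes tested were called lower.

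**Figure D3:**
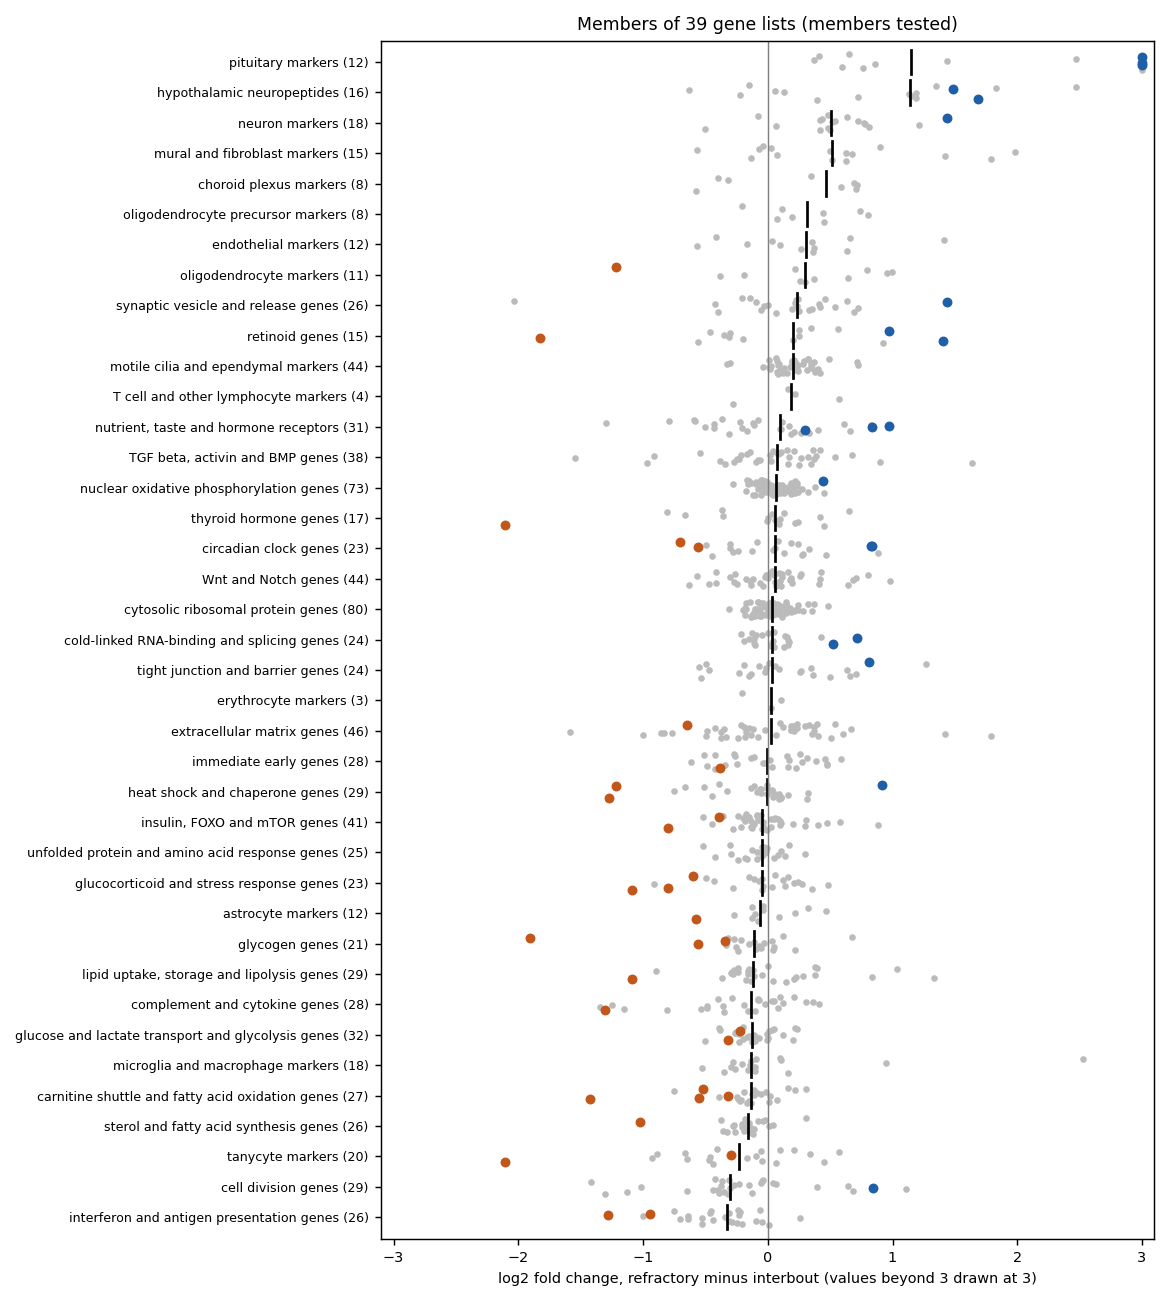
Log2 fold change, refractory minus interbout, of each tested member of 39 gene lists with 5 against 5 libraries; blue points passed and were higher, orange points passed and were lower, grey points did not pass, the black bar is the list median and values beyond 3 are drawn at 3. Pituitary markers and neuropeptides have the highest medians (1.15 and 1.14) and interferon and antigen presentation genes the lowest (-0.33), and most lists hold 0 to 3 members that passed.

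Placed among the 6 groups, many of the differing genes had a refractory mean on the long photoperiod side. The refractory animals were still on short days in the cold. However, refractory and long photoperiod animals were also the only ones labelled 8 months old, the other groups being 4 or 6 months old. A likeness of these 2 groups therefore cannot be told apart from their shared age. The long photoperiod mean lay nearer the refractory than the interbout mean for 187 of the 208 higher genes (89.9%), beside 59.7% of all genes tested. The same held for 245 of the 332 lower genes (73.8%). Among the higher genes this share was 52.9% for pre-hibernation and 57.2% for late pre-hibernation, beside 38.5% and 40.4% of all genes. Among the lower genes it was 21.1% and 20.8%. The torpid group had 39.9% of the higher and 16.9% of the lower genes, beside 41.2%. The refractory and long photoperiod means both lay outside the range of the 4 remaining groups for 105 of the higher genes (50.5%, both above) and 250 of the lower genes (75.3%, both below), beside 16.1% and 16.3% of all genes tested. The interbout mean was the lowest of all 6 groups for 152 of the higher genes, beside 2462 of all genes tested. It was the highest for 155 of the lower genes, beside 2370. The refractory mean was the highest for 152 of the higher genes and the lowest for 250 of the lower genes, beside 3481 and 3434. These are counts of group means with no test, over genes chosen by the difference of 2 of the groups. The pituitary genes Gh1, Pou1f1 and Fshb were among the 105 higher genes. The part of pituitary tissue in these counts was not tested. Pygm, for example, averaged 38.4 ± 13.6 CPM on long photoperiod (n = 6), 135 ± 37.1 in pre-hibernation (n = 5), 121 ± 28.1 in late pre-hibernation (n = 6) and 125 ± 72.1 in torpor (n = 6), with interbout at 104.5 ± 34.5 and refractory at 27.7 ± 10.1 CPM. Cryab was likewise low in 2 groups, with 307 ± 48.0 CPM on long photoperiod and 383 CPM in refractory animals, against 928 CPM in interbout euthermia and means of 1312 ± 366, 1280 ± 353 and 1123 ± 458 CPM in pre-hibernation, late pre-hibernation and torpor. Sh3bgrl3 averaged 156 ± 8.2 CPM on long photoperiod and Crabp1 16.8 ± 1.59 CPM, each nearer its refractory than its interbout mean.

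Dio2 and Lrat were among the exceptions to that pattern. Dio2 averaged 46.1 ± 20.9 CPM on long photoperiod and 5.84 ± 1.52, 5.23 ± 1.61 and 7.38 ± 3.67 CPM in pre-hibernation, late pre-hibernation and torpor, so the refractory mean of 4.77 ± 1.92 CPM lay with the short-day groups and the interbout mean of 20.7 ± 10.5 CPM between them and long photoperiod. For Lrat the late pre-hibernation mean was lowest, at 4.45 ± 1.04 CPM, with 7.14 ± 2.28 in pre-hibernation, 79.0 ± 41 on long photoperiod, 17.4 ± 6.18 in torpor, 18.4 ± 11.5 in interbout euthermia and 5.18 ± 1.39 in refractory animals. Dct was lowest in refractory animals of all 6 groups, its other means ranging from 4.08 ± 1.09 CPM in pre-hibernation to 22.7 ± 11.1 in interbout euthermia. Ddit4 was no such exception, its long photoperiod mean of 89.8 ± 7.78 CPM lying near the refractory mean of 97.1 ± 8.61 CPM. Its torpid mean of 90.6 ± 25.9 CPM was also far from the interbout mean of 169 ± 8.97 CPM. The pre-hibernation and late pre-hibernation means of Ddit4 were 145 ± 14.2 and 143 ± 24.9 CPM.

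**Figure D4:**
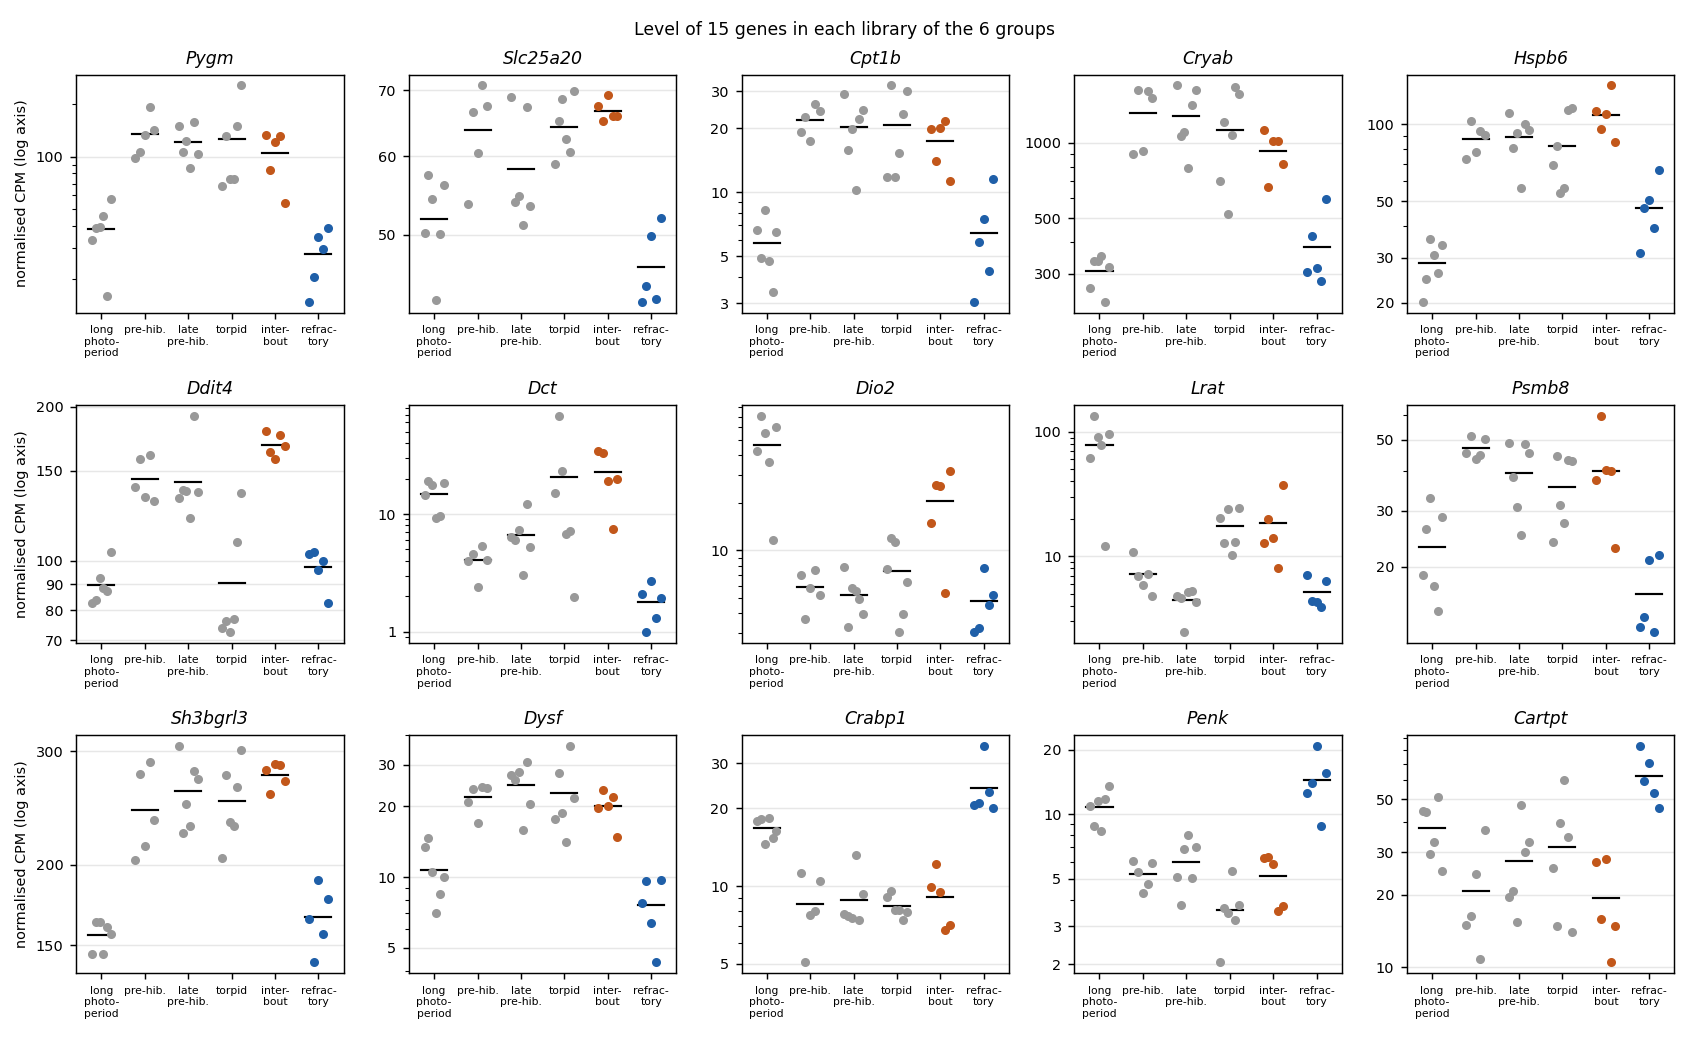
Normalised CPM (log axes) of 15 genes in each of the 33 libraries without the rRNA-rich ones, by group; each point is 1 library, black bars are group means, interbout is orange and refractory blue. The refractory means of Pygm, Cpt1b, Cryab, Sh3bgrl3 and Dysf lie nearer the long photoperiod than the interbout means, with some refractory points outside the long photoperiod range, while all refractory points of Dio2 and Lrat lie below every long photoperiod point.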

How the data were processed

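Raw gene counts were used as the authors deposited them, 1 table per library. Per the file headers, featureCounts 2.0.1 counted read pairs per gene against RefSeq exons (BCM_Maur_2.0) without regard to strand, so reads of a gene and of an overlapping or antisense gene cannot be told apart. Alignment file names in the headers carry the name STAR; no version of it was found. By the labels' protocols, RNA integrity numbers were 7 to 9. The tables held 32340 genes, 31895 of them matched to RefSeq names, and no 2 libraries were identical. Contig positions are not printed, since the contigs have no chromosome names.

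Genes were filtered with filterByExpr, scaled with TMM and fitted with edgeR 4.0.16 (robust quasi-likelihood, R 4.3.3) on 33 libraries of all 6 groups, leaving out refractory 4, interbout 6 and pre-hibernation 5 (over 5% of counts on 18 ribosomal RNA genes). The contrast was refractory minus interbout, 5 against 5, and again 6 against 6 with all 36 libraries. Adjusted p values are Benjamini-Hochberg over all genes tested, called below 0.05, and all those in the report are edgeR's unless another tool is named. Values of refractory 4 and interbout 6 are scaled with all 36 libraries. The 39 gene lists are described by counts and medians, with no set test.

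Named genes are the 12 largest rises and 12 largest falls (mean log2 CPM of at least 1, informative symbol), from each list up to 4 passing members by p, 8 genes with the smallest p and a fixed set of tanycyte, thyroid and fuel genes. Some of these genes are not reported here. The comparison, lists and rule were chosen with earlier results of these data known. Alternatives were RLE factors, DESeq2 1.42.0, limma 3.58.1 voom, other filters, other sets of libraries, marker covariates and a replicate block; those keeping refractory 4 or interbout 6 alone, or leaving out refractory 2 and 3 or refractory 3 and 6, were chosen after seeing the data. The edgeR steps were tested on simulated data first. Python 3.11.15 with pandas 2.3.3 and matplotlib 3.10.9 served for summaries and plots.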

Additional observations from a re-analysis of the deposited data

Results flagged for a closer look

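In the groups of 5 or 6 libraries, 1 library stood far from the others of its group for 19 of 198 sets of values looked at; chance alone flags about 1 in 20 such groups. Among the called genes, refractory 3 was the high one for Crabp1 (35 CPM, the others 20.1 to 23.1), Gh1 (547 CPM, the others 0.198 to 88.5) and Fshb (7.56 CPM, the others 0 to 0.878). Refractory 6 was high for Cers1 (80.5 CPM, the others 45.5 to 54.5). Refractory 5 was low for Angptl4 (3.42 CPM, the others 5.99 to 6.76) and refractory 2 for Pgk1 (227 CPM, the others 249 to 255).

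In interbout euthermia, interbout 3 was high for Aldh1l1 (74.1 CPM, the others 67.6 to 69.0) and interbout 2 for Psmb9 (70.5 CPM, the others 29 to 40.2). Interbout 4 was high for Gh1 (1.57 CPM, the others 0 to 0.347) and for Fshb (0.127 CPM, the others at 0). Of genes that did not pass, Dio3 was high in interbout 4 (13.5 CPM, the others 2.34 to 5.42) and Gpr50 in interbout 2 (7.54 CPM, the others 1.58 to 2.63). The summed motile cilia and ependymal markers were high in interbout 5 (15900 CPM, the others 11900 to 12500) and the summed microglia and macrophage markers in interbout 2 (961 CPM, the others 400.0 to 548), both scaled with the 33 libraries.

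Refractory 4 stood apart by the share of ribosomal RNA genes (41.8%, the others 0.348% to 0.669%) and of mitochondrial genes (13.8%, the others 2.14% to 2.80%). Interbout 6 stood apart by the same shares (7.21% and 12.0%, the others at most 0.53% and 2.37%) and by its total (14.1 M counts, M being 1e6, the others 22.1 to 26.9 M).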

How the results depend on the processing

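The count of changed genes depended more on which libraries entered than on scaling. Against 540 genes (208 higher, 332 lower), all 36 libraries gave 365 higher; keeping pre-hibernation 5 gave 329 (124, 205); the 10 libraries alone gave 195 lower; DESeq2 gave 1058 (456, 602); limma voom 1054 (467, 587); no filter beyond 1 count 279 (98, 181). Neuron and oligodendrocyte covariates gave 210 lower and moved the share of higher genes from 38.5% to 54.6%. Keeping refractory 4 alone gave 950, 617 of them higher (64.9%); leaving out refractory 2 and 3 gave 111 (45, 66), and refractory 3 and 6 gave 1038 (365, 673). Leaving out 1 library gave 151 to 617 genes, 42 to 259 higher and 99 to 383 lower, with the lowest counts without refractory 2 (151), interbout 3 (168) and interbout 4 (210). The cause of these shifts was not tested, except that smaller sets hold fewer libraries. RLE factors, a filter of 1 CPM in 5 libraries, and removal of ribosomal RNA and mitochondrial genes stayed within 1.5 times, and none of the 69 named genes that passed changed direction under any of the 25 alternatives that gave it a value.

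Whether replicate numbers pair the animals cannot be told from these values. Deviations of same-numbered libraries correlated at 0.202, -0.103, 0.124 and 0.122 (numbers 1, 2, 3 and 5). Differently numbered refractory and interbout libraries correlated at -0.295 to 0.244. Of these 4 refractory libraries, 2 correlated best with their own number. The replicate block gave 976 genes (368 higher, 608 lower), and 68 of the 69 named genes kept their call.

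Depth limits the genes at low levels: Pou1f1, for example, rests on 39 counts over the 5 refractory libraries.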
